A study of Mus musculus with 20 samples.

Results

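A set of 8 genes known as marks of the fetal-like and YAP-driven regenerative state of the gut were followed in mouse intestine: Ly6a, Gja1, Spp1, Clu, Msln, Ctgf, Cyr61 and Ankrd1. They were chosen by name, as every array probe whose gene name in the scanner files equals one of these symbols, which gave 16 probes for these 8 of the 25043 genes with a named probe. The 1-colour Agilent arrays measured total RNA from intestinal tissue of C57BL6/j mice, 1 array per mouse, in 4 groups. The Cre control group (6 arrays) held mice with VillinCreER alone, a Cre recombinase that tamoxifen switches on and that the Villin promoter limits to the gut epithelium. The BRAFV600E group (6 arrays) held mice with VillinCreER and BrafV600E-LSL/+, an allele of the mutant kinase that stays silent until Cre removes its stop cassette. Per the study's methods, mice of both genotypes were 8 to 12 weeks old, received 3 daily doses of 2 mg tamoxifen, and were sampled 3 days after the last dose. The MEKi group (4 arrays) received PD184352, an inhibitor of MEK, the kinase directly downstream of BRAF, and the Vehicle group (4 arrays) the carrier alone, as 3 injections after 2 of tamoxifen. By the study's methods, these tamoxifen doses were also smaller than the 2 mg given to the other groups, so induction differed between the experiments. The labels do not give the genotype or age of the MEKi and Vehicle mice, and the study's figure legend puts them on the mutant allele. The first comparison asks what the mutant kinase changes within days, and the second what changes when MEK is blocked.

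In the Hippo pathway, the kinases Mst and Lats hold the coactivators YAP and TAZ in the cytoplasm, and when that brake is released YAP and TAZ enter the nucleus and switch on genes through the TEAD factors. Ctgf, Cyr61 and Ankrd1 are the targets most often read as a measure of that activity. After injury, the adult gut epithelium can pass through a state that resembles fetal epithelium, in which YAP activity is high and genes such as Ly6a, Clu, Msln, Spp1 and Gja1 are expressed. Most of these genes are also made by other cells of the gut wall, and in bulk tissue fewer cells of a type and less RNA per cell cannot be told apart.

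The promoters show where letters that TEAD and AP-1 factors bind occur beside the members' starts. RefSeq promoter sequences (build GRCm38.p6) were at hand for 4 of the 8 members (Gja1, Spp1, Cyr61 and Ankrd1). The 250 bases before each start were searched on both strands for GGAATG, which reads CATTCC on the opposite strand and is the core that TEAD factors bind, and for TGANTCA, the core of AP-1, a target of ERK signalling. These motifs do not overlap each other in letters. The 3 sequences with a match are printed 5′ to 3′ on the strand of the gene, in lower case with the matches in capitals.
Cyr61 (listed as Ccn1, chr3:145649986-145650235, minus strand): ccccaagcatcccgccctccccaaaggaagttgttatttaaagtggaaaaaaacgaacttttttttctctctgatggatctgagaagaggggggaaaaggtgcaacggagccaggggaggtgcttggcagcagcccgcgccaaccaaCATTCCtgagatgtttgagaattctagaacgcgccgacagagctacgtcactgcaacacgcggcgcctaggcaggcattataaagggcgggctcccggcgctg
Ankrd1 (chr19:36119845-36120094, minus strand): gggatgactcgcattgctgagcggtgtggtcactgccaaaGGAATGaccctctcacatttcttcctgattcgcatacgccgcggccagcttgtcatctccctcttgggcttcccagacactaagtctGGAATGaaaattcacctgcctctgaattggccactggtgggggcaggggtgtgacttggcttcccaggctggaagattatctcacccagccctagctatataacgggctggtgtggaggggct
Gja1 (chr10:56377050-56377299, plus strand): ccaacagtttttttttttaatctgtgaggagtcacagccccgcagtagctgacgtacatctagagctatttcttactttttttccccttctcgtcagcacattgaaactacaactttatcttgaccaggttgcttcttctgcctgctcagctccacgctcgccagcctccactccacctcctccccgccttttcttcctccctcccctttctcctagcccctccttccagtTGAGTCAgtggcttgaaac
Cyr61 held 1 TEAD motif, beginning 103 bases before the start. Ankrd1 held 2, at 210 and 123 bases before the start. Gja1 held no TEAD motif and 1 AP-1 motif at 19 bases before the start, and the 2 Spp1 starts held neither. Among 32851 promoters of the same length, 12.6% held the TEAD motif and 6.75% the AP-1 motif, so a match is a description of the letters and not a bound site. Ly6a, Clu, Msln and Ctgf were not matched in the table.

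A level below is the log2 of the processed signal minus that array's 75th percentile over all non-control spots, so 0 is the level of a probe at the 75th percentile, and levels are compared only within a probe. Between 60.8% and 76.8% of the spots of an array were well above background (Agilent's own mark for a spot clearly brighter than its surroundings), and 0 spots were saturated. All 10 epithelium markers (Epcam, Vil1, Cdx2 and others) were well above background on each of the 20 arrays. Slide 1 carried all Cre control arrays with BRAFV600E replicates 1 and 2, and slide 2 carried BRAFV600E replicates 3 to 6. On slide 2 the spike-in controls gave a dose response of slope 0, and 53 to 139 of 350 spike-in spots were well above background. Slide 3 held MEKi in its first row and Vehicle in the next, and a row effect there cannot be told apart from treatment. Vehicle replicate 2 carried exocrine pancreas transcripts, with a summed linear signal of 2158 times the 75th percentile over 9 markers, against at most 1.68 on every other array. Each member's MEKi difference is therefore also given without it, each member's BRAFV600E difference also on slide 1 alone, and the lists are counted in both ways in 1 place further on. Adjusted p-values are two-sided, from limma, over all genes tested, and a gene is called at an adjusted p under 0.05.

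Of the 8 members, 7 could be tested in each comparison and 1, Ankrd1, was not well above background anywhere. In BRAFV600E against Cre control, only Ctgf was called, as higher, and 4 members passed at an unadjusted p under 0.05 (Ctgf and Cyr61 higher, Gja1 and Msln lower). Across all 19040 genes tested there, 12.9% were called, 6.39% as higher and 6.51% as lower. The 1 of 7 members is 14.3%. With the normexp background correction the calls were 1593 higher and 3228 lower with a median difference over all genes of -0.14, and without scaling between arrays 9155 higher and 177 lower with a median of 0.79, against 1217, 1239 and -0.02 here. Without scaling, Ly6a, Gja1 and Clu also changed sign in this comparison, to positive. The groups did not overlap for 7.49% of all genes and for 1 of the 7 members, again Ctgf. In MEKi against Vehicle, limma called 0 of the 7 members, with 1, Ly6a, at an unadjusted p under 0.05. Of 19231 genes tested, 1.93% were called, 1.05% as higher and 0.884% as lower, and 12.2% did not overlap between groups, against 0 of the 7 members. The levels of all members on every array stand in the plot of levels by array, and the differences in the plot with their intervals.

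**Figure D1:**
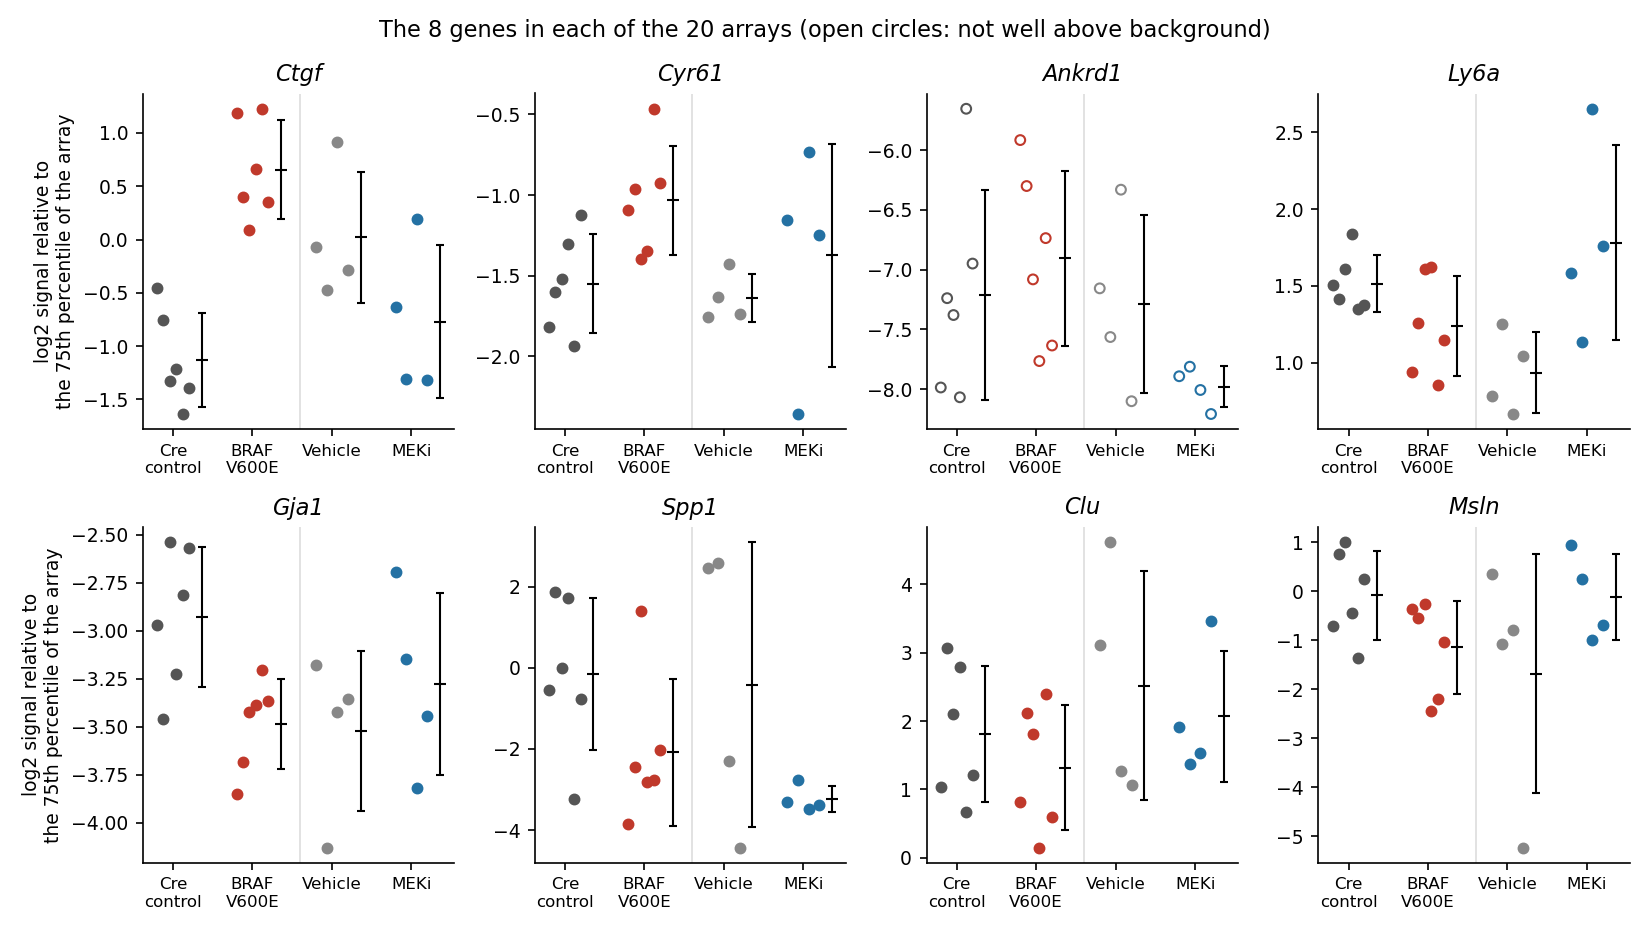
Log2 level (log2 processed signal minus the array's 75th percentile) of the 8 members on each of the 20 arrays, 1 point per mouse, with bars for the group mean and SD and open circles for spots not well above background. The Ctgf points of BRAFV600E lie between 0.09 and 1.23, above all Cre control points, the Spp1 points spread widely in Cre control, BRAFV600E and Vehicle, and all Ankrd1 points are open circles.

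**Figure D2:**
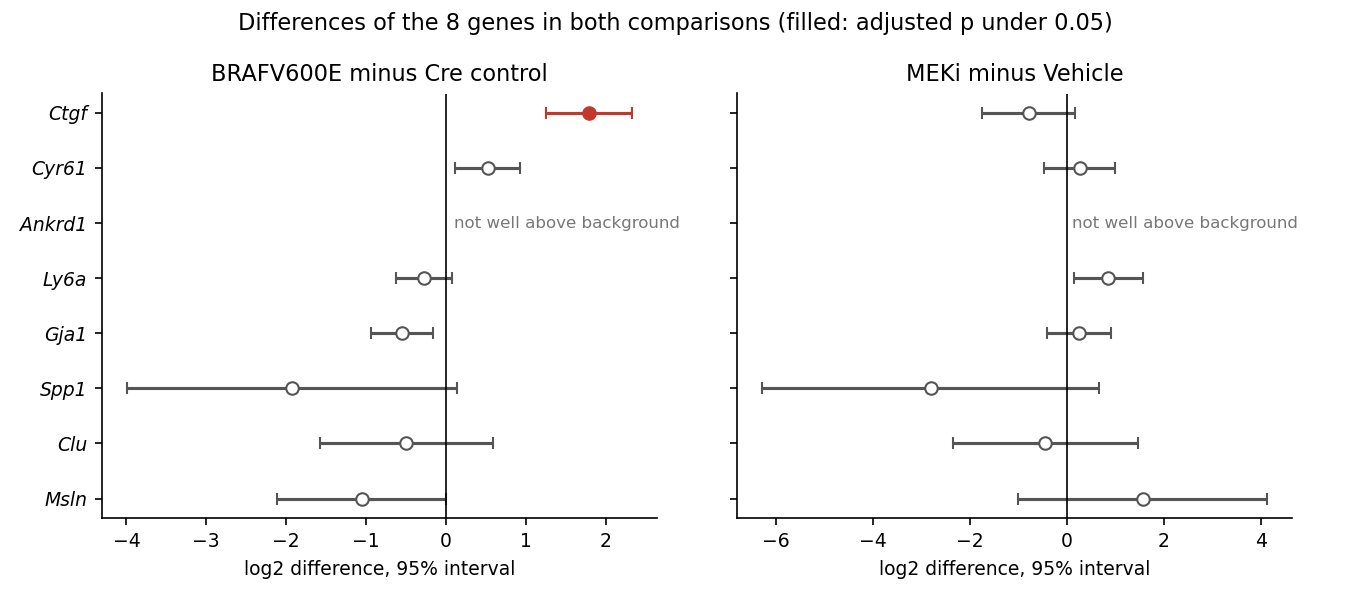
Difference in log2 level for the 7 tested members in each comparison, with the 95% interval from limma as a line and a filled point where the adjusted p is under 0.05. Ctgf in BRAFV600E against Cre control, at 1.79, is the only filled point.

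Ctgf encodes a secreted matrix protein of the CCN family and is a standard read-out of YAP and TEAD activity. Its probe lies at chr10:24318281-24318340 (mm9, plus strand) and was well above background on all 20 arrays. In Cre control its level had a lowest value of -1.64, a median of -1.27 and a highest of -0.45, and in BRAFV600E 0.09, 0.53 and 1.23. Every BRAFV600E array was thus above every Cre control array. The means were -1.13 ± 0.44 (SD, n = 6) and 0.65 ± 0.47 (SD, n = 6). Ctgf rose by 1.79 on the log2 scale (SE 0.25, 95% interval 1.25 to 2.32), or 3.45-fold, with an adjusted p of 0.0011. On slide 1 alone, with 2 BRAFV600E arrays, the difference was 1.93 and the adjusted p 0.0244, and with the slide as a block the adjusted p was 0.0090. The call held under all 25 alternatives run, with differences from 1.53 to 2.60. On slide 3, the levels in MEKi replicates 1 to 4 were -0.63, -1.31, 0.19 and -1.32, and in Vehicle -0.07, -0.47, 0.91 and -0.28. The highest MEKi array lay above 3 of the 4 Vehicle arrays, so the groups overlapped. The difference of -0.79 (SE 0.42, 95% interval -1.75 to 0.16) had an adjusted p of 0.404, and it was -0.96 (adjusted p 0.337) without Vehicle replicate 2. Markers of fibroblasts and endothelium, cells that also make Ctgf, gave 0 calls in either comparison (limma, with 1 endothelium marker lower at an unadjusted p under 0.05 in BRAFV600E), while of 9 smooth muscle markers 2, Des and Actg2, were called as higher in BRAFV600E. On slide 1 alone neither Des (adjusted p 0.215) nor Actg2 (adjusted p 0.105) was called by limma. With the slide as a block only Actg2 was (adjusted p 0.0365). The part of fibroblasts, endothelium and smooth muscle in the Ctgf difference was not tested.

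Cyr61 encodes the closest relative of Ctgf in the CCN family and is likewise a direct YAP and TEAD target, with the TEAD motif shown above in its promoter. Its probe lies at chr3:145310187-145310246 (mm9, minus strand). Levels ran from -1.93 over a median of -1.56 to -1.12 in Cre control and from -1.40 over -1.03 to -0.46 in BRAFV600E. The BRAFV600E values sat higher but overlapped the top of Cre control. The difference was 0.52 (SE 0.19, 95% interval 0.11 to 0.92) with an adjusted p of 0.0848, and it was 0.52 on slide 1 alone (adjusted p 0.250). In MEKi the 4 arrays gave -1.15, -2.36, -0.73 and -1.25, and in Vehicle -1.75, -1.63, -1.43 and -1.74. Replicates 1, 3 and 4 of MEKi were above all Vehicle arrays and replicate 2 below them. The difference of 0.26 (SE 0.32, 95% interval -0.47 to 1.00) did not pass (adjusted p 0.755), and was 0.27 without Vehicle replicate 2.

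Ankrd1 encodes a stress-induced ankyrin-repeat protein of heart and skeletal muscle that YAP switches on in many cell types. Its single probe (chr19:36186809-36186868, mm9, minus strand) was well above background on 0 of 20 arrays. Its signal lay between -8.07 and -5.65 in Cre control, -7.76 and -5.91 in BRAFV600E, -8.21 and -7.81 in MEKi, and -8.10 and -6.33 in Vehicle. With both groups of each comparison at the level of the background, no fold is given and the gene's direction is not known from this probe.

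Ly6a encodes Sca-1, a surface protein of the Ly6 family that marks fetal-like and repairing epithelium and is also known to be induced by interferon. Its probe lies at chr15:74825553-74825612 (mm9, minus strand). Levels had a lowest, median and highest value of 1.35, 1.46 and 1.84 in Cre control and of 0.85, 1.20 and 1.62 in BRAFV600E. The ranges overlapped, and the difference of -0.28 (SE 0.16, 95% interval -0.63 to 0.07) did not pass (adjusted p 0.270). Slide 1 alone gave -0.42 (adjusted p 0.252). In the inhibitor experiment, MEKi replicates 1 to 4 stood at 1.58, 1.14, 2.65 and 1.76 and Vehicle replicates at 0.78, 1.25, 0.67 and 1.04. MEKi replicates 1, 3 and 4 were above all Vehicle arrays, and replicate 2 lay within the Vehicle range. The difference was 0.85 (SE 0.31, 95% interval 0.14 to 1.56), with an adjusted p of 0.220, and 0.95 without Vehicle replicate 2. On the same arrays all 14 interferon-induced genes tested had a positive difference, with a median of 1.46 against 0.04 over all genes. Of them 9 were called as higher, against 1.05% of all genes. Igtp (2.69, adjusted p 0.0267) and Zbp1 (2.49, adjusted p 0.00469), which take part in defence against intracellular microbes, and Ifit1 (2.16, adjusted p 0.0129) and Usp18 (1.85, adjusted p 0.0388), classic targets of type I interferon, had the largest differences of the 9. In BRAFV600E against Cre control the same list had 14 of 14 negative differences with a median of -0.34, and 1, Gbp2, was called (-0.82, adjusted p 0.0407). Whether this list and Ly6a are linked was not tested.

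The other Ly6 proteins, small surface proteins with a shared fold, had 16 tested genes in each comparison. In BRAFV600E 5 were called, all as lower, against 6.51% of all genes, and the list's median was -0.25. Ly6k fell by 1.11 (adjusted p 0.0239), Ly6e, another interferon-induced member, by 0.68 (adjusted p 0.0182), Ly6c2 by 0.62 (adjusted p 0.00857) and Ly6c1, found on monocytes and endothelium, by 0.59 (adjusted p 0.0126). With the inhibitor limma called 0 (1 at an unadjusted p under 0.05), with a median of 0.10. Ly6c1 and Ly6c2 are near-identical in sequence, so their probes may not separate them.

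Gja1 encodes connexin 43, the most widespread protein of gap junctions, made by smooth muscle, endothelium and some epithelial cells. Its name is carried by 8 probes, more than for any other member, and 5 of them were tested. A_55_P2741895, the brightest of them on average over all 20 arrays (mean level -3.28), represents the gene. Over the 12 arrays of this comparison A_55_P2800487 was brighter, with a mean level of -2.84 against -3.21, and whether Gja1 is called there depends on which of these probes is taken. The coordinates of A_55_P2741895 run from 56097108 to 56107358 on chromosome 10 (mm9, plus strand), a span of 10251 bases, so it joins letters that lie apart in the genome. Its levels ran from -3.46 over a median of -2.89 to -2.54 in Cre control and from -3.85 over -3.41 to -3.20 in BRAFV600E. The BRAFV600E arrays sat lower, with an overlap at the edge. The difference was -0.56 (SE 0.18, 95% interval -0.95 to -0.16) and the adjusted p 0.0601, just short of the threshold. Slide 1 alone gave -0.84 (adjusted p 0.130) and the slide as a block an adjusted p of 0.0504. Leaving out Cre control replicate 2 gave -0.66 (adjusted p 0.0350) and leaving out Cre control replicate 4 gave -0.61 (adjusted p 0.0468), so whether Gja1 was called turned on single mice. MEKi replicates 1 to 4 stood at -2.69, -3.15, -3.82 and -3.44 and Vehicle replicates at -3.18, -4.13, -3.42 and -3.36. The groups overlapped and the difference was 0.25 (SE 0.29, 95% interval -0.41 to 0.91, adjusted p 0.745). Without Vehicle replicate 2, the array with pancreas transcripts and the lowest Gja1 level, it was 0.04 (adjusted p 0.954).

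The other Gja1 probes did not give 1 answer. With every probe tested one by one, A_55_P2800487 (chr10:56108488-56108978) went from -2.24 ± 0.42 (SD, n = 6) in Cre control to -3.44 ± 0.60 (SD, n = 6) in BRAFV600E, a fall of 1.20 (SE 0.28, adjusted p over all probes 0.0214). That call was lost with the slide as a block (-0.99, SE 0.40, adjusted p over all probes 0.168), on slide 1 alone (-0.99, adjusted p 0.215) and without Cre control replicate 3 (-1.10, adjusted p 0.0529). On that scale A_55_P2741895 had an adjusted p of 0.0757. A_55_P2741907 differed by -0.19, A_52_P174915 by 0.13 and A_55_P2741897 by 0.18, with adjusted p from 0.718 to 0.895. Of the remaining 3, A_55_P2741899 and A_55_P2741911 were well above background on no array, and A_55_P2741901 on 1 of these 12. On slide 3 the differences of the 5 tested probes lay between 0.17 and 0.80 and none was called. The largest, for A_55_P2800487, had an adjusted p of 0.431, and that probe was well above background on only 1 of 4 Vehicle arrays.

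**Figure D3:**
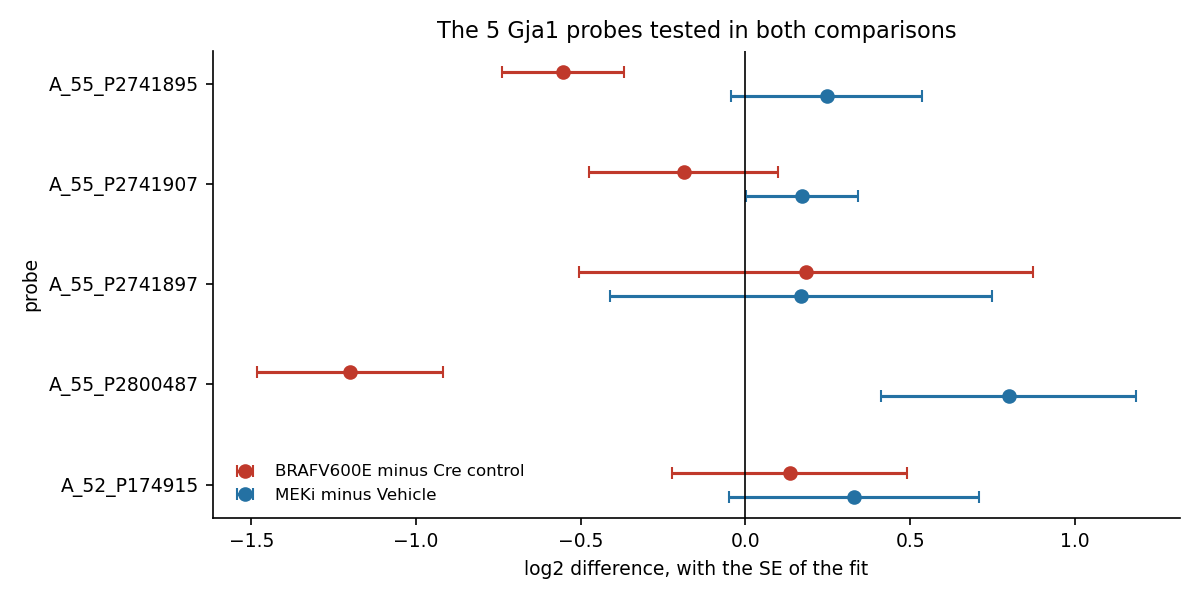
Difference in log2 level for the Gja1 probes in each comparison, with the limma SE as the error bar. In BRAFV600E against Cre control, A_55_P2800487 at -1.20 and A_55_P2741895 at -0.56 lie below 0, and the other tested probes lie near 0.

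Among the other connexins, 12 were tested in BRAFV600E against Cre control and 3 called, against 12.9% of all genes. Gjb1, connexin 32, a connexin of glandular epithelium, rose by 1.00 (adjusted p 0.0407), Gjd3 fell by 1.89 (adjusted p 0.0165), and Gja5, connexin 40 of arterial endothelium, fell by 0.83 (adjusted p 0.0215). The median was -0.17. In the MEKi comparison limma called 0 of 13 (1 at an unadjusted p under 0.05), with a median of 0.11.

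Spp1 encodes osteopontin, a secreted phosphoprotein made by activated macrophages and by some epithelial cells, and had the widest spread of any member. Its probe lies at chr5:104869788-104869847 (mm9, plus strand) and was well above background on all 20 arrays. Levels ran from -3.23 over a median of -0.27 to 1.88 in Cre control. In BRAFV600E they ran from -3.85 over -2.60 to 1.40, and after the highest, replicate 3, the next array stood at -2.03. The difference was -1.93 (SE 0.95, 95% interval -3.99 to 0.14, adjusted p 0.193). Without BRAFV600E replicate 3 it was -2.62 (adjusted p 0.0584), and on slide 1 alone -2.99 (adjusted p 0.203). In MEKi the 4 arrays lay close together at -3.32, -2.76, -3.47 and -3.37, and in Vehicle they split into 2.47 and 2.59 against -2.29 and -4.43. One Vehicle array was thus below all MEKi arrays and 3 above them. The difference of -2.81 (SE 1.51, 95% interval -6.29 to 0.66) had an adjusted p of 0.419, and without Vehicle replicate 2, the array with pancreas transcripts, it was -1.81 (adjusted p 0.593). Without Vehicle replicate 4 it was -4.15 (adjusted p 0.180).

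The genes whose levels followed Spp1 most closely were Arg1, arginase 1, Trem2, a lipid-sensing receptor of myeloid cells, and Hmox1, haem oxygenase. With group means removed, they had Pearson r of 0.954, 0.945 and 0.916 over the 20 arrays, the highest of 18358 genes, given as a description. On BRAFV600E replicate 3, the array with high Spp1, Arg1 stood at 0.67 and Trem2 at 0.18, against at most -3.48 and -2.36 on the other BRAFV600E arrays. Vehicle replicates 1 and 2 had Arg1 at 0.80 and 0.12 and Trem2 at 0.06 and 0.16, against at most -4.19 and -3.60 on replicates 3 and 4. In Cre control, replicates 2 and 4 had Spp1 at 1.88 and 1.71, Arg1 at 1.49 and 1.39 and Trem2 at 0.88 and 0.69. The other Cre control arrays had Arg1 at most at -0.56 and Trem2 at most at -0.14. The summed level of 10 macrophage markers, in multiples of the 75th percentile, was 202 on BRAFV600E replicate 3 against 56.2 to 112 on the other 5, and 209 to 345 in Cre control. In Vehicle it was lowest, at 109, on replicate 2, where Spp1 was highest. It was 235 to 342 in MEKi, whose Spp1 levels were low. Of these markers 2 were called as lower in BRAFV600E (Lyz2, lysozyme, by -1.76, adjusted p 0.00551, and Csf1r by -0.69, adjusted p 0.0113), with a median of -0.38. Between MEKi and Vehicle limma called 0 of 10 (1 higher and 1 lower at an unadjusted p under 0.05). All 10 markers were well above background on every array. Because the sum adds linear signals, it is not an even reading of the 10 and follows Lyz2 most. Lysozyme is also the study's marker of Paneth cells, which sit at the crypt base. Whether Lyz2 and the sum read macrophages alone was not tested. The mean log2 level in Cre control was 7.88 for Lyz2, against 3.72 for Csf1r. The part of these markers in the Spp1 levels was not tested.

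**Figure D4:**
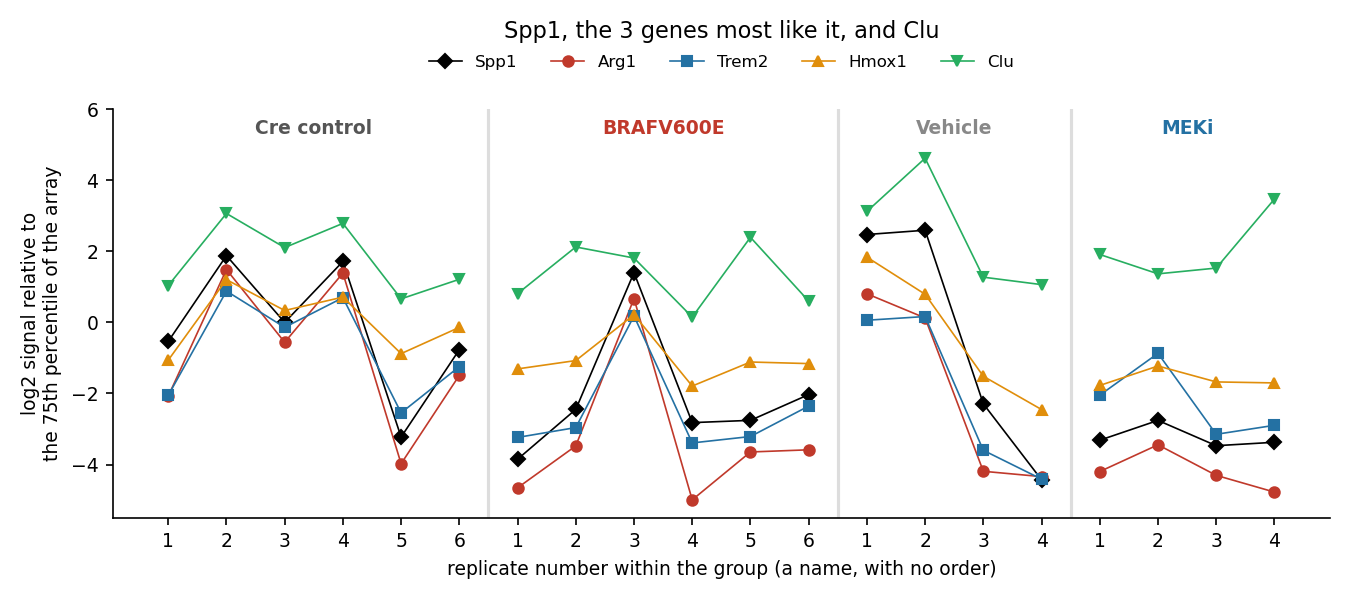
Log2 levels of Spp1, Arg1, Trem2, Hmox1 and Clu on the 20 arrays by group. Lines only join the values of 1 gene within a group, and replicate numbers carry no order. Spp1, Arg1, Trem2 and Hmox1 are high together on Cre control replicates 2 and 4, BRAFV600E replicate 3 and Vehicle replicates 1 and 2.

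Osteopontin binds integrins and Cd44, and CCN proteins bind several of the same integrins. Of 10 such receptors tested, 1 was called in BRAFV600E, Itga5, the fibronectin receptor subunit, which rose by 0.97 (adjusted p 0.00325). Between MEKi and Vehicle 1 was called, Cd44, the hyaluronan receptor, which fell by 0.91 (adjusted p 0.0288). The medians were 0.15 and -0.18. The relatives of the secreted members gave 0 calls and 0 genes at an unadjusted p under 0.05 in limma. The other CCN proteins had 2 tested genes, with medians of 0.47 in BRAFV600E and -0.37 in MEKi, and the other SIBLING phosphoproteins of bone and tooth, the family of osteopontin, 2 and 3 tested genes with medians of -0.45 and 0.28. The relatives of Ankrd1, Ankrd2 and Ankrd23, had 1 and 2 tested genes with medians of -0.26 and 0.08.

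Clu encodes clusterin, a secreted chaperone that marks rare revival stem cells of the regenerating crypt and is made by many stromal and endocrine cells. Of its 2 probes, the 1 at chr14:66600325-66600382 (mm9, plus strand) was well above background on all arrays and A_55_P2718608 on none. Levels had a lowest, median and highest value of 0.66, 1.66 and 3.06 in Cre control and 0.15, 1.31 and 2.39 in BRAFV600E. The ranges overlapped over most of their length, with a difference of -0.50 (SE 0.50, 95% interval -1.58 to 0.58, adjusted p 0.541) and of -0.35 on slide 1 alone. MEKi replicates 1 to 4 stood at 1.91, 1.36, 1.53 and 3.47, and Vehicle replicates at 3.12, 4.62, 1.27 and 1.06. The highest value of all 20 arrays was that of Vehicle replicate 2, and the difference of -0.45 (SE 0.83, 95% interval -2.36 to 1.46, adjusted p 0.855) turned to 0.25 without it (adjusted p 0.888).

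Msln encodes mesothelin, a surface protein of the mesothelium that covers the gut and of fetal-like epithelium. Its probe lies at chr17:25885569-25885628 (mm9, minus strand). Levels ran from -1.35 over a median of -0.10 to 1.00 in Cre control and from -2.45 over -0.79 to -0.25 in BRAFV600E. The ranges overlapped. The difference was -1.06 (SE 0.49, 95% interval -2.11 to -0.0018, adjusted p 0.164), and -0.38 on slide 1 alone (adjusted p 0.740). In MEKi the arrays gave 0.94, 0.26, -0.99 and -0.68 and in Vehicle 0.37, -1.07, -0.78 and -5.23. Vehicle replicate 4 stood far below the rest, and the difference of 1.56 (SE 1.12, 95% interval -1.01 to 4.13, adjusted p 0.562) was 0.38 without it (adjusted p 0.835) and 1.76 without Vehicle replicate 2 (adjusted p 0.557). The summed level of 7 mesothelium markers was 0.99 to 1.48 in Cre control, 0.656 to 1.098 in BRAFV600E, 0.79 to 1.34 in MEKi and 0.87 to 1.55 in Vehicle, with replicate 4 at 0.966. Of 6 such markers tested, limma called 0 in either comparison (1 lower at an unadjusted p under 0.05 in BRAFV600E and 0 in MEKi). Wt1, Upk1b and Krt5 were well above background on every array, while Bnc1 was on 2 of 6 Cre control arrays and on none of the others. The summed signal of 4 Y-linked genes was 2.52 to 3.04 in MEKi, 2.85 and 2.75 in Vehicle replicates 1 and 3, and 0.342 and 0.259 in Vehicle replicates 2 and 4. Signal from the Y chromosome, a mark of male tissue, was thus high on all 4 MEKi arrays and on 2 of the 4 Vehicle arrays, so the groups were not matched in it. It was 2.44, 2.80, 2.38, 0.49, 1.18 and 0.89 on Cre control replicates 1 to 6. On BRAFV600E replicates 1 to 6 it was 2.25, 2.52, 2.74, 0.66, 0.93 and 3.14. Both BRAFV600E arrays on slide 1 were thus high beside a mixed Cre control, so slide 1 alone was not matched in Y-linked signal either. With that signal as a covariate the Msln difference was -1.33 in BRAFV600E (adjusted p 0.0430) and -0.010 in MEKi (adjusted p 0.998). The part of both marker sets in the Msln levels was not tested.

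As a list, the 5 fetal-like members all had negative differences in BRAFV600E (Ly6a, Gja1 and Clu were positive without scaling between arrays), with 0 called (Gja1 and Msln at an unadjusted p under 0.05) and a median of -0.56 against -0.02 over all genes. With the inhibitor 3 were positive and 2 negative, 0 were called (Ly6a at an unadjusted p under 0.05) and the median was 0.25 against 0.04. The 2 tested YAP targets among the members had a median of 1.15 in BRAFV600E, with Ctgf called, and of -0.26 in MEKi, with 0 called and 0 at an unadjusted p under 0.05. Pathway genes were then counted beside them, as drawn in the plot of both comparisons.

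The Hippo core itself (Yap1, Wwtr1, the Tead, Lats, Stk and Mob genes, Nf2, Amot and others) had 23 tested genes, with 1 called in BRAFV600E, the atypical cadherin Fat1 (0.52, adjusted p 0.0334), and a median of 0.06. In MEKi limma called 0 (2 lower at an unadjusted p under 0.05), with a median of 0.01. Amotl2, Lats2 and Ptpn14 stand both in the Hippo core and in the list of 20 other YAP targets. Of those 20, 4 were called as higher and 1 as lower in BRAFV600E, with a median of -0.03. Over all genes these shares were 6.39% and 6.51%. In the list, 4 genes thus stood as higher. Those higher were Nt5e, the surface enzyme CD73 (1.95, adjusted p 0.0313), F3, tissue factor (1.45, adjusted p 0.0239), Asap1 (0.76, adjusted p 0.0225) and Dock5 (0.59, adjusted p 0.0142), the latter pair being regulators of small GTPases. The fifth was the kinase Nuak2 (-0.53, adjusted p 0.0407). In MEKi F3 fell by 1.61 (adjusted p 0.0175) and Asap1 by 1.54 (adjusted p 0.00577), Nuak2 rose by 0.88 (adjusted p 0.0206), and the median was again -0.03.

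The other fetal and regenerative genes had 19 tested in BRAFV600E, of which 10 were called as higher and 0 as lower, with a median of 0.55. The groups did not overlap for 8 of the 19, against 7.49% of all genes. Like the members, this list was chosen with earlier results of these data known, so its counts are a description and not a test. S100a6, a calcium-binding protein, rose by 2.68, or 6.41-fold (SE 0.21, adjusted p 1.89e-05), from 4.13 ± 0.40 (SD, n = 6) to 6.81 ± 0.36 (SD, n = 6). Anxa3, an annexin, rose by 1.80 (adjusted p 0.0178), and Krt7, a keratin of simple ductal epithelium, by 1.77 (adjusted p 0.000727). In MEKi, of 20 tested, 6 were called as lower and 0 as higher, with a median of -0.62, and for 9 the MEKi arrays lay below all Vehicle arrays, against 12.2% of all genes in either direction. Il1rn, the interleukin 1 receptor antagonist, fell by 2.11 (adjusted p 0.00492), S100a6 by 1.79 (adjusted p 0.00510) and Tnfrsf12a, the TWEAK receptor, by 1.61 (adjusted p 0.0177). None of the 5 fetal-like members was called beside them in either comparison.

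ERK signalling, the pathway that the mutant kinase feeds, was read on the same arrays. Over all genes 6.39% were called as higher in BRAFV600E and 0.884% as lower in MEKi. Of 11 ERK output genes, 10 were called as higher in BRAFV600E, with a median of 0.86, led by the transcription factor Etv4 (2.50, adjusted p 0.000186), the feedback inhibitor Spry4 (2.19, adjusted p 0.000622), Phlda1 (1.76, adjusted p 0.00919) and the phosphatase Dusp4 (1.65, adjusted p 0.000303). In MEKi 6 were called as lower, with a median of -1.61, led by Etv4 (-2.95, adjusted p 0.00320), Etv5 (-2.57, adjusted p 0.00157), Spry4 (-2.34, adjusted p 0.00510) and Phlda1 (-2.14, adjusted p 0.0334). Immediate early genes, which answer within minutes to growth factors and also to tissue handling, had 13 tested. Egr1 (1.26, adjusted p 0.0120) and Atf3 (1.05, adjusted p 0.0498) were called as higher in BRAFV600E, with a median of 0.35, and in MEKi limma called 0 (1 higher and 1 lower at an unadjusted p under 0.05), with a median of -0.05.

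On slide 1 alone, with 2 BRAFV600E arrays, 7 of the 19 other fetal and regenerative genes were called as higher (median 1.01), 4 of the 11 ERK output genes as higher (median 1.22), and 1 other YAP target as higher (F3) and 1 as lower (median 0.08). S100a6 differed there by 2.88 (adjusted p 0.00487), Etv4 by 2.45 (adjusted p 0.0245) and F3 by 2.34 (adjusted p 0.0244). The Hippo core, the Ly6 proteins, the connexins, the receptors and the immediate early genes had 0 calls there in limma, and with the slide as a block 0, 2, 0, 0 and 1. Of the interferon-induced genes 1 was called as lower on slide 1 alone, with a median of -0.82, and 3 with the slide as a block. Gbp2 was called in neither (limma, adjusted p 0.120 and 0.0769). Of the 34 largest called genes of the lists, counting cell markers, all 34 had the same sign on slide 1 alone, and 12 were called there and 19 with the slide as a block. Without Vehicle replicate 2, 7 of the other fetal and regenerative genes, 5 ERK output genes and 3 other YAP targets were called as lower. Called as higher were 6 interferon-induced genes, 1 other YAP target, 1 Ly6 gene, 1 T cell marker and 1 exocrine pancreas marker. The receptors had 0 calls. Of the 17 largest called genes in that comparison all 17 had the same sign and 11 were called, with Cd44 (adjusted p 0.0509), Igtp (0.0501), Usp18 (0.0711), Phlda1 (0.0530) and Krt19 (0.0558) among the 6 that were not.

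**Figure D5:**
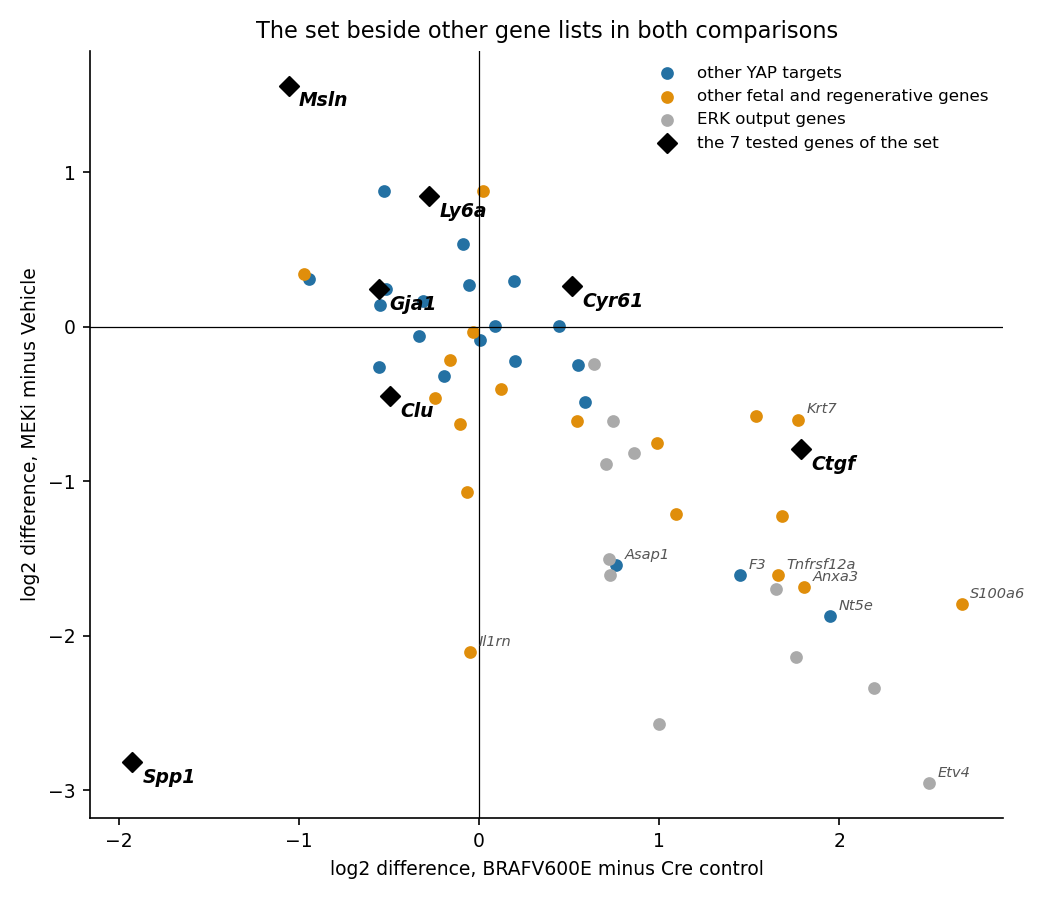
Difference in log2 level of genes tested in both comparisons, in BRAFV600E against Cre control (horizontal axis) and MEKi against Vehicle (vertical axis) for the members and 3 lists, other YAP targets, other fetal and regenerative genes (1 of them not drawn) and ERK output genes. Ctgf lies at 1.79 and -0.79, S100a6 at 2.68 and -1.79, and the fetal-like members lie to the left of 0 (without scaling between arrays, Ly6a, Gja1 and Clu would lie to the right).

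Markers of other cells moved in places. Among 10 epithelium markers Krt19 (0.94, adjusted p 0.000776), Krt18 (0.87, adjusted p 0.00299) and Cdh1 (0.61, adjusted p 0.0154) were called as higher in BRAFV600E, and Krt19 as lower in MEKi (-0.73, adjusted p 0.0299). In BRAFV600E 7 of the 10 were positive and 3 negative. On slide 1 alone 2 were called as higher, Cdh1 was not (0.34, adjusted p 0.307), and the list median was -0.009. With the slide as a block 2 were called as higher and 1 as lower. Des (0.94, adjusted p 0.0135) and Actg2 (0.71, adjusted p 0.0351), of smooth muscle, were called as higher in BRAFV600E, and Cd3g (-0.98, adjusted p 0.0356), Lck (-0.94, adjusted p 0.0272) and Cd8a (-0.84, adjusted p 0.0346), of T cells, as lower. On slide 1 alone limma called 0 smooth muscle markers, with a list median of 0.002 against 0.20 over both slides, and 3 T cell markers as lower. Fibroblast, endothelium, mesothelium, B cell, exocrine pancreas and Y-linked genes had 0 calls by limma in BRAFV600E, with 0, 1, 1, 3, 1 and 0 genes at an unadjusted p under 0.05. In MEKi the marker lists other than epithelium had 0 calls, with 4 T cell markers, 2 macrophage markers and 1 Y-linked gene at an unadjusted p under 0.05. Their part in the members' differences was not tested.

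The members were also compared with each other across mice, as correlations of levels with each group's mean removed, over 28 pairs, with two-sided permutation p-values and Benjamini-Hochberg adjustment over the pairs. By Pearson's r 0 of the 28 pairs passed. The closest pair was Spp1 and Clu (r = 0.71, permutation p 0.00765, adjusted p 0.141, rho = 0.65, adjusted p 0.210). Without the 2 arrays farthest from the median of Spp1, whatever their Clu level, r was 0.69 (permutation, adjusted p 0.111). Over all 20 arrays, with the slide removed as well as the group mean, it was 0.74 (permutation, adjusted p 0.0846). Within Cre control r was 0.93 (exact permutation p 0.00278, adjusted p 0.0778), and within BRAFV600E it was 0.29 (exact permutation p 0.711). Ctgf and Cyr61, the 2 measured YAP targets, had r = 0.47 (adjusted p 0.618), and 0.26 without the 2 arrays farthest from the median of Ctgf. By Spearman's rho, Ly6a and Ankrd1 passed (rho = -0.71, adjusted p 0.0210), with r = -0.44 (adjusted p 0.141), but Ankrd1 was at background on every array.

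Genes most like each other member, by Pearson r of group-centred levels over 20 arrays, are given as a description. For Ctgf they were Ss18 (0.776), Camsap1 (0.769) and Nt5dc3 (0.766), and for Cyr61 4930503L19Rik (0.817), Sorcs2 (0.798) and Glipr1 (0.789). Ly6a was nearest to Dhodh (0.813), Spon1 (0.806) and Pilrb2 (0.786), and Gja1 to Gp1bb (0.832), Shc2 (0.808) and Rn7s1 (0.806). Clu was nearest to Slc2a6 (0.830), Nrros (0.804) and Ascl5 (0.788), and Msln to Dmkn (0.905), Ldhb (0.882) and Hand2os1 (0.871). None of these 18 genes is itself a member.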

How the data were processed

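Total RNA from intestinal tissue of 20 mice was hybridised to 1-colour (Cy3) Agilent mouse arrays, 1 mouse per array. The authors scanned each array and deposited 1 processed intensity per spot, from which Agilent Feature Extraction (10.5.1.1 in the submitters' processing notes) had subtracted background, together with a mark for spots well above it. The deposited value table held the same intensity (100% of spots within 0.5%) and served only as a check. The setting without scaling used the log2 of the scanner intensity, with control and outlying spots left out. The intensity is linear and is not scaled between arrays, so total brightness (75th percentile 540 to 1554) would otherwise enter each difference.

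Control spots and outlying spots were left out, the log2 intensity minus the array's 75th percentile was taken, and copies of a probe were averaged. Probes were named through a RefSeq gene table (GRCm38.p6), 34013 by accession, 9987 by symbol and 318 by synonym, with 12271 unnamed, and the 16 member probes by the name in the files. Each gene was represented by its brightest probe. Genes well above background on at least 6 arrays (BRAFV600E against Cre control) or 4 (MEKi against Vehicle) were fitted with limma 3.58.1 (lmFit and eBayes, R 4.3.3) on the arrays of that comparison, with no covariate, and Benjamini-Hochberg adjustment over all genes. The script was tested on simulated data. Each array is 1 mouse, so p-values cover the spread between mice, and the number of arrays limits the precision.

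Groups came from the labels' group names. A treatment text in the labels that is the same for all arrays names a statin and female mice, fits no group, conflicts with the Y-linked signal on arrays of every group, and was not used. Replicate numbers follow the order of deposition, name an array and pair nothing. The members and all lists were chosen with earlier results of these data known. The text names all members with every probe, at most the 4 largest called genes of each other list in each comparison (1 such gene is not reported here), Nuak2 in BRAFV600E, chosen after its value was seen, marker genes whose presence is stated, and the 3 genes most like each member. Coordinates of probes follow the files (mm9), and their place in exons or UTRs was not analysed here. Alternatives were other background correction, scaling, filters and probe rules, array weights, a trended or joint fit, a Y-linked covariate, the slide, and leaving out each array. Those for single probes and for lists were added after seeing the data.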

Additional observations from a re-analysis of the deposited data

Results flagged for a closer look

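A sample was marked when its gap to the nearest of its group was large for the group's whole range (Dixon's 95% limit). Over 186 groups of values this marked 12, and chance alone marks about 1 in 20. Among the members, only Spp1 was marked, on BRAFV600E replicate 3, with a log2 level of 1.40 against -2.03 for the next array of the group. Among summed linear levels, in multiples of the array's 75th percentile, exocrine pancreas markers stood at 2158 on Vehicle replicate 2 against less than 1 on the other Vehicle arrays. Epithelium markers were low on Cre control replicate 4, at 667 against 866. Smooth muscle markers were high on MEKi replicate 1, at 177 against 99.1. Mesothelium markers were low on BRAFV600E replicate 4, at 0.656 against 0.936, and high on Vehicle replicate 1, at 1.55 against 0.966. Y-linked genes were at 3.04 on MEKi replicate 2 against 2.58. Among other named genes, by log2 level, Krt7 was high on BRAFV600E replicate 2, at 3.00 against 2.14, and Igtp low on MEKi replicate 2, at 2.09 against 3.63. Atf3 was low on BRAFV600E replicate 1, at -1.44 against -0.13. Csf1r was low on Cre control replicate 5, at 3.27 against 3.72, and Lck on Cre control replicate 4, at 0.103 against 0.873.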

How the results depend on the processing

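Of the 7 tested members, the number called in BRAFV600E against Cre control was 1, and 2 with normexp background, without scaling between arrays, with only genes well above background on every array, with array weights and with the Y-linked covariate, and between 1 and 2 when single arrays were left out (2 without Cre control replicate 2 or 4). The second was Gja1 (normexp -0.65, adjusted p 0.0103, every array -0.56, 0.0482, array weights -0.56, 0.0377), Cyr61 without scaling (1.33, adjusted p 0.00718) or Msln with the Y-linked covariate (-1.33, adjusted p 0.0430). Ctgf was called throughout, with a highest adjusted p of 0.0244. Without scaling, 3 differences changed sign, Ly6a to 0.53, Gja1 to 0.26 and Clu to 0.31, while the median of all genes was 0.79. The count of member probes called was 2, and 1 with the slide as a block and on slide 1 alone, where the Gja1 probe A_55_P2800487 was lost, and between 1 and 3 when single arrays were left out (1 without Cre control replicate 3, 3 without Cre control replicate 2). In MEKi against Vehicle 0 members were called in all 19 alternatives, and signs changed for Gja1 with the mean of all its probes (-0.016), Clu with array weights (0.18), Msln with the Y-linked covariate (-0.010) and Clu without Vehicle replicate 2, where leaving out single arrays gave -0.94 to 0.25. The cause was not tested. Genes called over the whole array went from 731 (slide 1 alone) to 9332 (no scaling) around 2456, and in MEKi against Vehicle from 54 (Y-linked covariate) to 1201 (array weights) around 371. Called genes of the other fetal and regenerative genes ran from 7 to 12 around 10 in BRAFV600E and from 2 to 10 around 6 in MEKi, other YAP targets from 2 to 8 around 5 and 1 to 5 around 3, and ERK output genes from 4 to 10 around 10 and 3 to 9 around 6. No paired analysis was possible because the labels carry no replicate numbers that tie arrays of different groups.

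With 6 or 4 mice a group the intervals of Spp1, Clu and Msln are wide, and a difference that missed the threshold is not shown to be absent. Of the 16 member probes 4, that of Ankrd1 among them, were not well above background on any array, and no difference is given for them. The slide and the mutant group cannot be separated for BRAFV600E replicates 3 to 6.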
